A study of Homo sapiens with 9 samples.

Results

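The genes described are 8 that encode receptors on the surface of T cells or receptors that steer T cells to tissues: CD2, CD5, CD7, CD1A, CD4, CD8A, CCR7 and CCR9. They were chosen by name, and each was read as a window of the hg19 genome holding the gene plus 25 kb on each side, so that 8 windows with a total length of 530 kb stand beside 17752 tiles of 65 kb that hold H3K27ac in the genome at large. The cells were DND-41, an established human line of T-cell acute lymphoblastic leukemia (T-ALL), and they were profiled by CUT&RUN, in which an antibody directs a nuclease to its target and the released DNA is sequenced. Of the 9 samples of the study, 5 were used: RUNX1, BRG1 and H3K4me3 in cells with no treatment label, and H3K27ac in cells given 100 nM ACBI-1 or the vehicle DMSO. ACBI-1 is a compound that brings about the degradation of the ATPases of SWI/SNF and of PBRM1, BRG1 (the product of SMARCA4) is one of those ATPases, and RUNX1 is a DNA-binding factor of blood cells. H3K4me3 marks active promoters, and H3K27ac marks active promoters and enhancers. Each target and treatment has 1 library, so no difference between treatments was tested, the spread between cultures is unknown, and no p-value is given. The peak lists hold positions and no read counts, so that sequencing depth and peak height are unknown, and the quantity compared is the length of DNA inside called peaks.

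Developing T cells change these receptors as they mature. CD7, CD2 and CD5 appear early and stay on most T cells, CD1A marks the cortical stage in the thymus, CD4 and CD8A are the coreceptors that divide mature T cells into helper and cytotoxic lineages, CCR9 guides cells within the thymus and to the gut, and CCR7 guides cells to the thymic medulla and to lymph nodes. RUNX factors are known regulators of the coreceptor genes during this maturation, and SWI/SNF complexes move nucleosomes at promoters and enhancers.

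Promoter sequences from RefSeq (GRCh38.p14, 250 bases before to 50 after an annotated start) matched 4 of the 8 genes, with 9 starts in all. They were searched for the RUNX letters TGTGGT and TGCGGT on both strands, which read ACCACA and ACCGCA when they lie on the opposite strand. Of the 9 starts, 2 held such letters, beside 19.6% of the 35116 promoters of the table. The starts of CD1A are shown because RUNX1 peaks lay at and before that gene, 1 of the 4 CD8A starts because it is the other one with the letters, and the CD2 start because CD2 is the gene whose window held BRG1. Capitals mark the RUNX letters, and each line runs 5′ to 3′ on the strand of the gene. The peaks below are in hg19 and were not placed on these GRCh38 sequences.
CD1A, outer start, chr1:158248086-158248385, plus strand: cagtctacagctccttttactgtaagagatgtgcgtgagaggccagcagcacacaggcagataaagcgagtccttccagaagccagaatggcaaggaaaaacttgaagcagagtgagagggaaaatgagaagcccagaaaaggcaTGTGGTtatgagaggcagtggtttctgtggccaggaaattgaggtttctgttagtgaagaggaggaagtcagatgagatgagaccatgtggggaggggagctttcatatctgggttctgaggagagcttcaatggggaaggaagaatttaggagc
CD1A, inner start, chr1:158254174-158254473, plus strand: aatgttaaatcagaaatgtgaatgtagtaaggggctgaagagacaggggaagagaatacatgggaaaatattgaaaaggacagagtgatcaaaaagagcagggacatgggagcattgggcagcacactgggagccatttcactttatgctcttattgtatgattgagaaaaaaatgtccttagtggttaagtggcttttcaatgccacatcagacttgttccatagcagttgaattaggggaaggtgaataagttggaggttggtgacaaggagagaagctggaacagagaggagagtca
CD8A, one start, chr2:86791631-86791930, minus strand: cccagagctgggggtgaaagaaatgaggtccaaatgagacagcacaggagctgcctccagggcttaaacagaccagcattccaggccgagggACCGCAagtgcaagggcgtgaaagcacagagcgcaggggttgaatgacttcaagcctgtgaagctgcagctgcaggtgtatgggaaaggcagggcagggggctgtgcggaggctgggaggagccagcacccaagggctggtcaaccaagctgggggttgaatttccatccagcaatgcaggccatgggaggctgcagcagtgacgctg
CD2, chr1:116754180-116754479, plus strand: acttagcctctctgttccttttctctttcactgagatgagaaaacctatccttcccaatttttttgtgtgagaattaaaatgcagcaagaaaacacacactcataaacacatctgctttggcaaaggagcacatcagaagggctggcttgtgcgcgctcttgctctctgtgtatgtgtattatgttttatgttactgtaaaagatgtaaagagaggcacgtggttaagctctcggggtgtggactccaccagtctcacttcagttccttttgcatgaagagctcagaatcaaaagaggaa
The outer CD1A start held TGTGGT at bases 146 to 151 of the line and the inner start held none of the letters. The CD8A line held ACCGCA at bases 93 to 98, and the 3 CD8A starts not shown held none of the letters. The CD2 line held none, which says only that these letters are not in this stretch.

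RUNX1 was present in the windows of all 8 genes, with 36 peaks in total, and BRG1 in 1 of them, with a single peak. Among the 10358 genome tiles with at least 2500 bp of H3K27ac in DMSO, 69.5% held a RUNX1 peak, 41.5% a BRG1 peak and 57.0% an H3K4me3 peak, and H3K4me3 was present in 7 of the 8 windows. The windows held 67.9 RUNX1 peaks per Mb, and these tiles 23.3 per Mb. The tiles are not matched to the windows in H3K27ac cover. In DMSO that cover was a larger share of the window than in 87.6 to 99.9% of these tiles for CD2, CD7, CD1A, CCR7 and CCR9. For CD8A it was larger than in 67.3% of them, and for CD5 and CD4 than in 0%. The number of RUNX1 peaks was 7 each for CD7, CCR7 and CCR9, 6 for CD1A, 3 each for CD2 and CD8A, 2 for CD4 and 1 for CD5. By the centre of the peak, 7 of the 36 lay in the gene itself, 15 before its start and 14 beyond its end. Their widths ran from 175 to 2877 bp with a median of 423 bp, against a median of 402 bp over all 19893 RUNX1 peaks. All peaks of a window are assigned to its gene by position alone, and neighbouring genes share several windows.

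**Figure D1:**
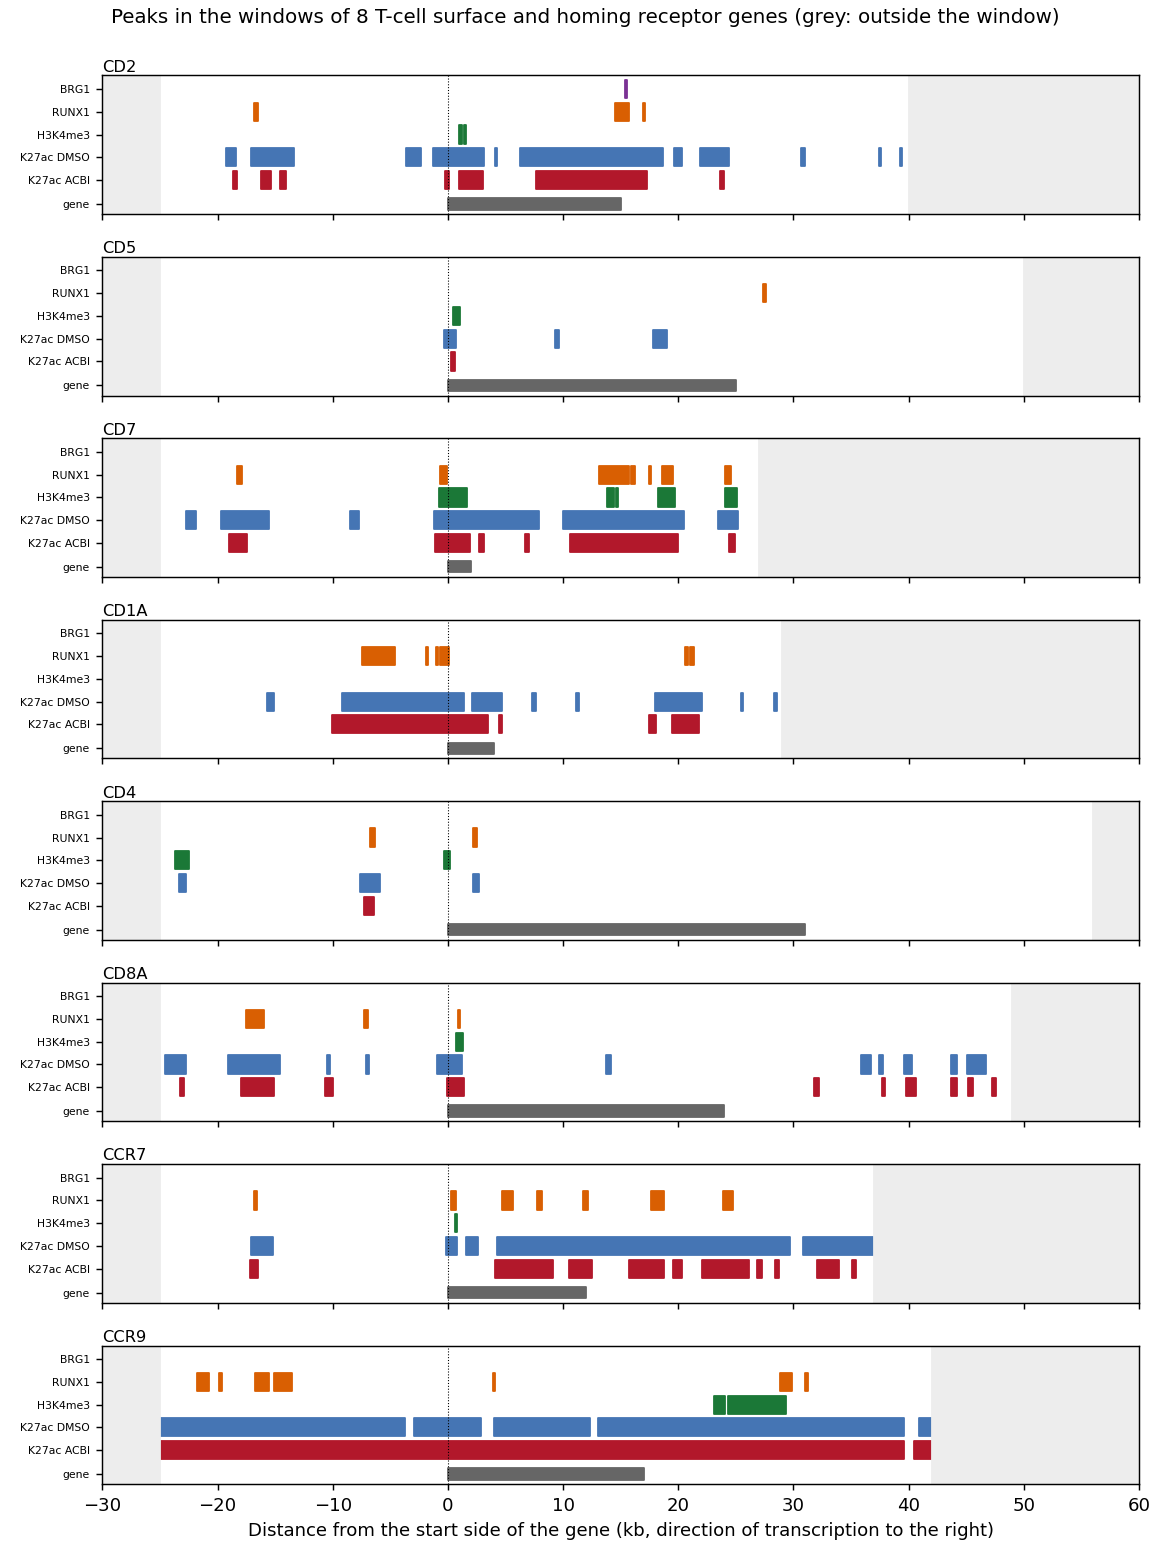
Called peaks in each gene window, plotted by distance in kb from the start side of the gene, with transcription to the right and the gene as a grey bar. BRG1 appears once, at the end of CD2, and the summed length of the H3K27ac bars is smaller in ACBI than in DMSO in the windows of all genes but CCR9, although single ACBI bars, such as the one over the CD1A start, are longer.

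The RUNX1 peaks of these windows lay mostly on H3K27ac and away from H3K4me3. Of the 36, 35 overlapped H3K27ac in DMSO (97.2%, exact 95% interval 85.5 to 99.9), against 83.8% of all RUNX1 peaks. On H3K4me3 were 7 of 36 (19.4%, 8.19 to 36.0), against 43.0% of all RUNX1 peaks. Only 1 of 36 overlapped BRG1 (2.78%, 0.0703 to 14.5), against 29.8% of all RUNX1 peaks. Away from H3K4me3 the share on BRG1 was 1 of 29 (3.45%, 0.0873 to 17.8), and 19.0% over all RUNX1 peaks away from H3K4me3. The intervals cover counting error only, and peaks of 1 window share their locus. The BRG1 peak nearest to a gene's start lay 15.4 kb away for CD2 and between 36.2 and 101.3 kb away for the others, with a median of 49.8 kb over the 8 genes. With 50 kb on each side in place of 25 kb, the windows held 9 BRG1 peaks in place of 1.

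H3K27ac was shorter in ACBI than in DMSO in 7 of the 8 windows, and longer in the window of CCR9. Less length in ACBI was found in 92.5% of all tiles with H3K27ac in DMSO, so 7 of 8 is close to the genome at large. Under 50% of the DMSO length was left in 2 windows, CD5 and CD4, and in 52.1% of the tiles with at least 2500 bp. H3K27ac covered 3.38% of the CD5 window and 3.47% of the CD4 window in DMSO, and 0% of those tiles had a smaller share, because the minimum of 2500 bp keeps sparser tiles out, so for these windows the tiles are not matched in cover. The median ratio of ACBI to DMSO length was 0.543 over the 8 genes and 0.484 over those tiles (quartiles 0.30 and 0.677). In order, the ratios were 0.131 for CD5, 0.303 for CD4, 0.524 for both CD2 and CCR7, 0.563 for CD7, 0.612 for CD8A, 0.888 for CD1A and 1.04 for CCR9. Which neighbours in that order differ beyond the spread between cultures is not known. Summed over the windows, H3K27ac covered 190427 bp under DMSO and 140266 bp under ACBI, or 73.7%. Without CCR9 it covered 127186 and 74180 bp, or 58.3%. The whole H3K27ac lists covered 127204884 bp under DMSO and 70755752 bp under ACBI, so the genome at large also had less length in ACBI.

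**Figure D2:**
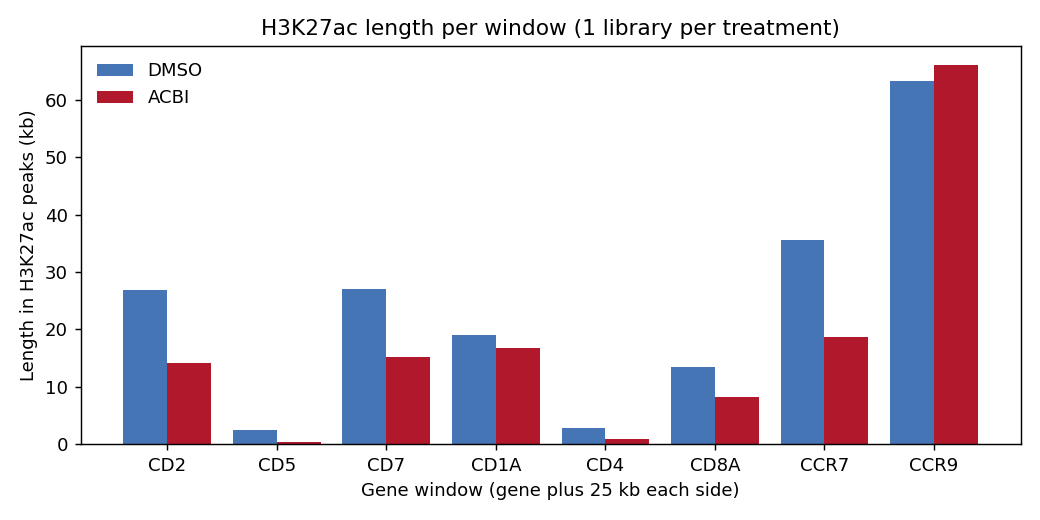
Length inside H3K27ac peaks in kb per gene window, for DMSO and ACBI, with 1 library per bar and no error bar. CCR9 has the longest bars, with 63241 bp (DMSO) and 66086 bp (ACBI), and CD5 and CD4 have the shortest.

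**Figure D3:**
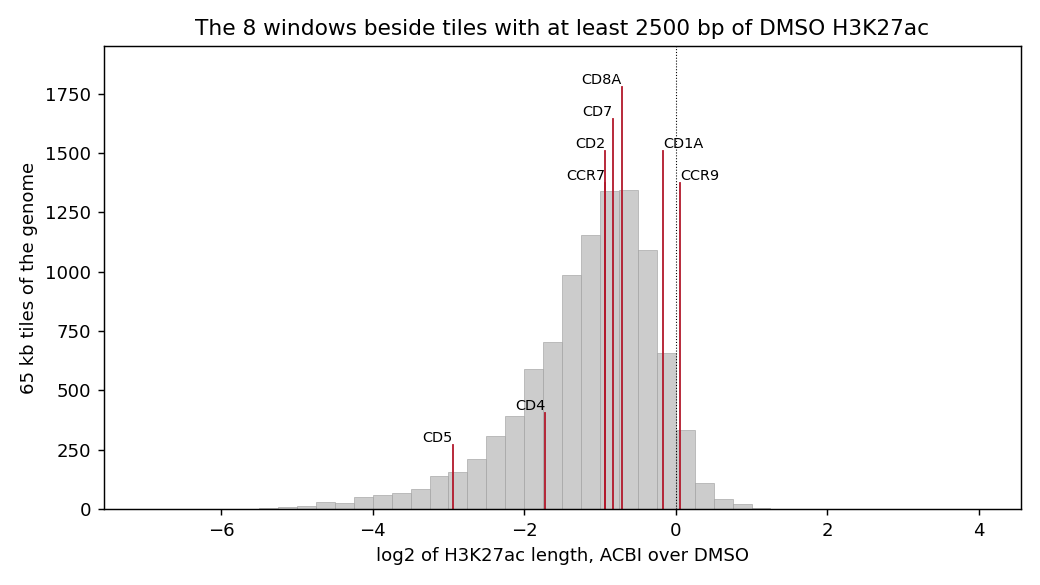
The log2 ratio of H3K27ac length, ACBI over DMSO, for 9958 tiles of 65 kb with at least 2500 bp in DMSO (grey bars; another 400 such tiles had no ACBI peak and are not drawn) and for the 8 gene windows (red lines). CD5 at -2.94 lies low, with 9.08% of the tiles with at least 2500 bp below it, CD4 at -1.72 lies near the first quartile, with 25.4% below it, and CCR9 at 0.06 lies high, with 96.0% below it.

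CD2, the adhesion receptor for CD58, had H3K27ac over 26838 bp of its window in DMSO. In ACBI it had 14076 bp, 47.6% less. The widest DMSO peak (chr1:117303261-117315647, 12387 bp) ran through the second part of the gene and past its end, and 77.5% of it was still covered in ACBI by 1 peak of 9602 bp. Inside it lay the one BRG1 peak of all 8 windows (chr1:117312363-117312542, 180 bp), wholly within a RUNX1 peak of 1200 bp (chr1:117311508-117312707), 14.5 kb from the start. Both were fully inside H3K27ac in both treatments, as was a RUNX1 peak of 175 bp 16.9 kb from the start. The region before the gene differed. A RUNX1 peak of 371 bp, 16.5 kb before the start (chr1:117280147-117280517), was fully inside DMSO H3K27ac and had none in ACBI, and a DMSO peak of 1335 bp 2.3 kb before the start (chr1:117293324-117294658) had no ACBI counterpart. At the start itself, 2 narrow H3K4me3 peaks of 257 and 202 bp were inside H3K27ac in both treatments, and the DMSO peak around them was 4440 bp wide, of which ACBI covered 53.4%.

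CD5, an inhibitory scavenger-type receptor of T cells, had little H3K27ac. Its window held 2534 bp in DMSO, in 3 peaks, and 331 bp in ACBI, in 1 peak, which is 86.9% less. The 331 bp lay at the start (chr11:60870287-60870617), inside the DMSO start peak of 1028 bp and partly on an H3K4me3 peak of 669 bp (chr11:60870404-60871072). The other DMSO peaks, of 301 and 1205 bp inside the gene, had no ACBI peak. The ratio depends on few bases: it was 0.320 with 50 kb on each side, and 0 when H3K27ac peaks under 500 bp were left out. The only RUNX1 peak (chr11:60897316-60897642, 327 bp) lay 27.3 kb from the start, past the end of the gene, and was the 1 of the 36 without H3K27ac in either treatment.

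CD7, an immunoglobulin-family receptor present from the earliest T-lineage stages, had the widest H3K4me3 peak at its start. An H3K4me3 peak of 2438 bp (chr17:80273306-80275743) covered its start and nearly the whole short gene, with a RUNX1 peak of 629 bp at the start (chr17:80275061-80275689). Both were fully inside H3K27ac in both treatments. H3K27ac in the window measured 27080 bp under DMSO against 15233 bp under ACBI, 43.7% less, and the difference was uneven. The DMSO peak over the gene measured 9114 bp and kept 41.7% of its length in ACBI, as 2988 bp around the gene and 2 small pieces of 334 and 479 bp. A peak of 10477 bp beyond the end of the gene (chr17:80254522-80264998) kept 89.1%. It held the widest RUNX1 peak of this window, 2605 bp (chr17:80259247-80261851), and 3 more RUNX1 peaks. A RUNX1 peak of 445 bp 17.9 kb before the start was fully inside H3K27ac in both treatments, and one of 474 bp 24.1 kb beyond the start was fully inside DMSO H3K27ac and 35% inside ACBI H3K27ac. In RefSeq order the coding genes next to CD7 are CSNK1D, past its end, and SECTM1, before its start. The peaks beyond the end of CD7 and those well before its start, 7.7 kb or more away, were not assigned to a gene.

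CD1A encodes a lipid-presenting molecule of cortical thymocytes, and its window held no H3K4me3 peak. The nearest one lay 50.3 kb from the start. RUNX1 was dense there. A peak of 2877 bp, the widest RUNX1 peak of the 36 (chr1:158216503-158219379), lay 4.6 kb before the start, peaks of 189 and 225 bp lay 1.7 and 0.8 kb before it, and a peak of 804 bp (chr1:158223312-158224115) covered the start itself. The 2 other RUNX1 peaks, of 253 and 367 bp, lay 20.6 and 21.0 kb from the start on the far side of the gene. All 6 were fully inside H3K27ac in DMSO and in ACBI. The DMSO peak over the start measured 10619 bp (chr1:158214819-158225437), and in ACBI a peak of 13564 bp (chr1:158213949-158227512) covered all of it. Over the gene itself H3K27ac measured 3315 bp under DMSO and 3513 bp under ACBI. The whole window still had 11.2% less in ACBI, 18959 against 16838 bp, and the 5 DMSO peaks lost there measured 177 to 646 bp. Of the tiles with at least 2500 bp, 90.7% had a lower ratio than CD1A.

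CD4, the coreceptor for MHC class II, was almost bare. H3K27ac covered 2811 bp of its window in DMSO, in 3 peaks, and 852 bp in ACBI, in 1 peak, 69.7% less. Its start carried an H3K4me3 peak of 542 bp (chr12:6898659-6899200) with no H3K27ac in either treatment. The ACBI peak of 852 bp lay 6.4 kb before the start and held most of a RUNX1 peak of 399 bp (chr12:6892240-6892638), of which 100% was in DMSO H3K27ac and 85.5% in ACBI H3K27ac. A second RUNX1 peak, of 304 bp (chr12:6901200-6901503), lay 2.2 kb inside the gene under a DMSO peak of 490 bp that had no counterpart in ACBI. The third DMSO peak, of 605 bp, was 22.7 kb before the start on an H3K4me3 peak of 1153 bp and was lost too. LAG3 and PTMS precede CD4 in RefSeq order, and this peak was not assigned to a gene. With 50 kb on each side the ratio was 0.459 in place of 0.303.

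CD8A, the coreceptor for MHC class I, had 13443 bp of H3K27ac in DMSO. The ACBI library had 8222 bp there, 38.8% less. At its start an H3K4me3 peak of 608 bp (chr2:87034677-87035284) held a RUNX1 peak of 175 bp, and the H3K27ac peak there was 2127 bp wide with DMSO and 1422 bp wide with ACBI. The RUNX1 peak was fully inside both, and the H3K4me3 peak was 81.9% inside the DMSO peak and fully inside the ACBI peak. The widest H3K27ac peak of the window lay before the start, on the side of CD8B, the next gene in RefSeq order. Its width was 4561 bp with DMSO (chr2:87050544-87055104) and 2848 bp with ACBI, and it held a RUNX1 peak of 1548 bp (chr2:87051991-87053538) fully inside H3K27ac in both. The hg19 extent of CD8B was not known here, so this peak may lie inside CD8B or between the genes. The peaks before the CD8A start were not assigned to a gene. A RUNX1 peak of 294 bp 7.0 kb before the start had 111 bp in DMSO H3K27ac and none in ACBI. This was the one window with ACBI peaks that had no DMSO counterpart, 2 narrow ones of 346 and 437 bp beyond the end of the gene.

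CCR7, the receptor for the lymph-node chemokines CCL19 and CCL21, had 35521 bp of H3K27ac under DMSO against 18628 bp under ACBI, 47.6% less. The narrow peaks at the start were lost, and the wider peaks of the locus were kept in part. At the start, a DMSO peak of 976 bp (chr17:38721204-38722179) held an H3K4me3 peak of 179 bp and a RUNX1 peak of 406 bp (chr17:38721319-38721724), and no ACBI peak overlapped any of them. A neighbouring DMSO peak of 998 bp was lost as well, so that within 2 kb of the start H3K27ac covered 1379 bp under DMSO and 0 bp under ACBI. A broad DMSO peak of 25412 bp (chr17:38692323-38717734) covered the 3′ part of the gene and the region beyond it. In ACBI it was replaced by 7 separate peaks that covered 61.0% of it. The 5 RUNX1 peaks inside it, of 440 to 1132 bp, kept their H3K27ac: 4 were fully covered in ACBI and 1 to 94.6%. A RUNX1 peak of 285 bp 16.6 kb before the start was fully inside H3K27ac in both treatments. Over all DMSO peaks, 65.5% of those of 741 to 977 bp and 52.4% of those of 978 to 1334 bp were lost. In the widest class, from 3014 bp, 4.03% were lost. The part of width in the contrast between the CCR7 start and the broad peak was not tested.

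CCR9, the receptor for the thymic and gut chemokine CCL25, had the most H3K27ac of the group and was the only window with more of it in ACBI. H3K27ac covered 63241 bp of its window in DMSO, or 94.4%, and 66086 bp in ACBI, or 98.6%. Of the tiles with at least 2500 bp, 99.9% were covered over a smaller share of their length in DMSO than this window. The 5 DMSO peaks of the window became 2 in ACBI, because a single ACBI peak of 67880 bp (chr3:45899708-45967587) spanned 4 of them, which measured 23693, 5820, 8394 and 26601 bp. A window so fully covered can gain little length. Of the 588 tiles covered over at least 50% of their length in DMSO, 51 (8.67%) had more length in ACBI, and their median ratio was 0.716. All 7 RUNX1 peaks were fully inside ACBI H3K27ac. The 4 before the start, of 1000, 264, 1216 and 1544 bp, lay 13.6 to 20.8 kb from it. One of 175 bp in the gene was 68.6% inside DMSO H3K27ac, and those of 1041 and 207 bp, 28.8 and 31.0 kb beyond the start, were fully inside it. No H3K4me3 lay within 2 kb of the start that the window gives for CCR9. The peaks of 957 and 5015 bp in the window were 23.1 and 24.3 kb beyond it, in a region shared with LZTFL1, which overlaps CCR9 in RefSeq.

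Around the starts alone, within 2 kb on each side, H3K4me3 was found at 6 of the 8 genes, the exceptions being CD1A and CCR9, and RUNX1 at 4 of 8, namely CD7, CD1A, CD8A and CCR7. H3K27ac was found at 7 of 8 starts in DMSO and 6 of 8 in ACBI. CD4 had none in either, and CCR7 had it in DMSO alone. The length was shorter under ACBI at 5 starts, those of CD2, CD5, CD7, CD8A and CCR7. At CD2 it was 3312 bp under DMSO against 1354 bp under ACBI, and at CD5 it was 1028 against 331 bp. At CD7 the values were 3240 and 2988 bp, a smaller difference. At CD1A they were 3438 bp under DMSO and 4001 bp, the full stretch, under ACBI, and CCR9 was fully covered in both. The windows were given to the nearest kb, so distances from a start carry that rounding. The same counts were not made over the starts of all genes, so they are not shown to be particular to these genes.

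Peak by peak, 22 of the 52 DMSO H3K27ac peaks of the windows had no overlapping ACBI peak (42.3%, exact 95% interval 28.7 to 56.8), against 59.1% of all DMSO peaks. The median width of these 52 peaks was 1117 bp, while that of all DMSO peaks was 741 bp, and at the loss seen for all DMSO peaks of the same 10 width classes 46.0% of them, or 23.9 peaks, would be lost. The observed count is near that number. None of the 16 peaks in the widest of these classes was lost, and in the genome 4.03% of that class were. Median widths were 448 bp for the lost peaks, which were at most 1335 bp wide, and 3879 bp for the kept ones. Of the 30 kept peaks, 13 had under 50% of their length in ACBI peaks. This share was not computed over all kept DMSO peaks, so whether it is usual is not known. Lost peaks numbered 6 at CD2, 5 at CD1A, 3 at CD8A, 2 each at CD5, CD7, CD4 and CCR7, and 0 at CCR9. In the other direction, 2 of the 41 ACBI peaks had no DMSO peak (4.88%, 0.596 to 16.5), against 21.4% of all ACBI peaks. DMSO H3K27ac covered 190427 bp of the 530 kb of windows, and these shares were not matched for such cover. Gains are therefore not shown to be rarer at these genes. The share in the windows was 12.2% when 50% of a peak had to be covered and 12.2% with equal numbers of the widest peaks from each list; the share of all ACBI peaks was not recomputed under these settings.

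**Figure D4:**
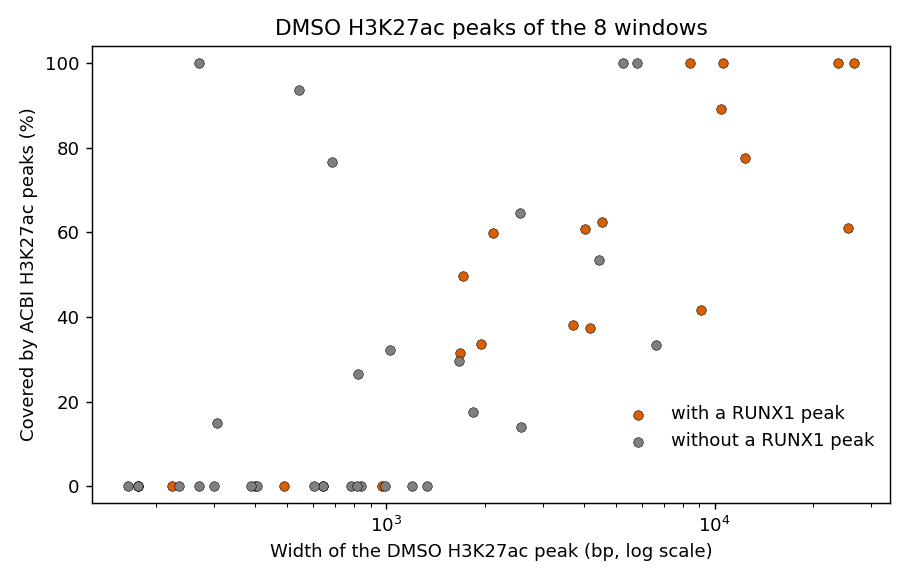
Each point is 1 of the 52 DMSO H3K27ac peaks of the windows, by width in bp (log axis) and by the percent of its length covered by ACBI peaks, coloured by overlap with RUNX1. Peaks at 0% are all 1335 bp wide or narrower, and peaks with RUNX1 are mostly wide.

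RUNX1 sites in these windows mostly kept H3K27ac in ACBI, and so did RUNX1 sites in the genome at large. Of the 35 RUNX1 peaks on DMSO H3K27ac, 31 also overlapped ACBI H3K27ac (88.6%, 73.3 to 96.8), against 76.1% of all such RUNX1 peaks. The 4 that did not were the 371 bp peak before CD2, the 304 bp peak in CD4, the 294 bp peak before CD8A and the 406 bp peak at the CCR7 start, all under 500 bp. The 9 RUNX1 peaks of 1000 bp or more were each at least 90% inside ACBI H3K27ac. The share over all RUNX1 peaks of that width was not computed. DMSO H3K27ac peaks with RUNX1 were lost in 3 of 19 cases (15.8%, 3.38 to 39.6) and those without it in 19 of 33 (57.6%, 39.2 to 74.5). Over all DMSO peaks these shares were 20.6% and 65.6%. Those with RUNX1 were also wider, with medians of 4175 and 685 bp in the windows, and the part of width in this difference was not tested.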

How the data were processed

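CUT&RUN peak lists of 5 libraries were used. The 4 IgG or input controls were not analysed here. By their labels the control for RUNX1 is an input and the other controls are IgG. Whether the RUNX1 library was prepared in the same way as the others is not known from these labels. The authors deposited each list as chromosome, start, end and name, with no other value per peak (no signal, score or p-value), so depth is unknown. The submitters' processing notes give hg19 as the build and name MACS2 and SEACR. RUNX1 peaks came from MACS2 and the H3K27ac lists are broad peaks with q under 0.01, per the file headers. Which caller made the BRG1 and H3K4me3 lists, their thresholds and any pooling: not given in the sources used here. A shallower library gives fewer and narrower peaks, which cannot be told apart from less H3K27ac.

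Windows were the gene positions (to the nearest kb) plus 25 kb each side. A peak belonged to a window, or to another peak, when they shared at least 1 bp; lengths were merged and clipped to the window. Gene strands were taken from RefSeq for 4 genes and from general knowledge of the gene for the others. The background was all 65 kb tiles of the autosomes and X with DMSO H3K27ac; the minimum of 2500 bp was chosen after the members' values were seen, and so was the class covered over 50%. A DMSO peak was lost when no ACBI peak overlapped it. Width classes were 10 of about equal size. Intervals are exact Clopper-Pearson 95%. All 8 genes were named, with their RUNX1 and BRG1 peaks singly or by range. The members and lists were chosen with earlier results of these data known. Other surface receptor genes had no hg19 position here and were not counted. Python 3.11.15, numpy 2.4.6, pandas 2.3.3, scipy 1.17.1 and matplotlib 3.10.9 were used, and the overlap code was tested on simulated data.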

Additional observations from a re-analysis of the deposited data

How the results depend on the processing

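The settings tried were windows with 10 or 50 kb on each side, H3K27ac peaks of at least 500 bp, equal numbers of the widest peaks of both H3K27ac lists (52967 each), 50% of a peak covered, and a peak within 1 kb counting as overlap; leaving out the CCR9 window was added after seeing the data. In all of those that change the length, 7 windows had less H3K27ac in ACBI. ACBI length as a percent of DMSO length was 75.5% with 10 kb, 73.3% with 50 kb, 72.4% with peaks of at least 500 bp, 75.5% with equal numbers and 58.3% without CCR9. RUNX1 peaks numbered 18 with 10 kb and 56 with 50 kb, H3K4me3 peaks 9 with 10 kb, and BRG1 peaks 9 with 50 kb. The share of DMSO peaks lost was 27% with equal numbers and 67.3% with 50% covered, and the share of ACBI peaks with no DMSO peak was 12.2% (5 of 41) in both. The shares over all peaks were not recomputed under these settings, so the 59.1% and 21.4% of the main setting are not their counterparts. Of 32 ratios of single genes, 29 stayed within 1.5 times, 3 moved further (CD5 with 50 kb and with peaks of at least 500 bp, CD4 with 50 kb) and 0 crossed 1. No paired analysis was possible because each treatment has 1 library. Peak height, read depth and the spread between cultures are unknown and limit all of these values.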
